A study of Mus musculus with 8 samples.

Results

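The mouse receptor genes for neuropeptide Y and galanin, Npy1r, Npy2r, Npy5r, Galr1 and Galr2, were described in 2 populations of neurons of the dorsal root ganglion (DRG), which houses the somatosensory cell bodies. They were taken by symbol, and 5 of 5 were found among the 43372 gene symbols of the count table. The Sst pools came from Sst-IRES-Cre mice (allele Ssttm2.1(cre)Zjh/J), where the gene of the peptide somatostatin, Sst, also drives the recombinase Cre. The Trpv1 pools came from Trpv1-IRES-Cre mice (Trpv1tm1(cre)Bbm/J), where the heat-gated channel gene Trpv1 drives it. All mice were C57Bl/6 and of both sexes, and all had been injected into the peritoneum at postnatal day 2 with an adeno-associated virus carrying a Cre-dependent eGFP or tdTomato reporter. The labels do not say which reporter each library had. When the mice were 3 to 5 weeks old, 150 to 250 labelled neurons of each were collected manually, and RNA of the pool was amplified and sequenced as 1 library. For each genotype the labels list 4 samples as independent, and p-values measure the spread between these. A library therefore gives the mean of its picked cells, which are those that made Cre at any time after the injection, and not the cells that make Sst or Trpv1 on the day of picking.

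Neuropeptide Y and galanin are peptides that act on G protein-coupled receptors. Most of these receptors couple to inhibitory G proteins of the Gi/o class, which lower cyclic AMP, open inwardly rectifying potassium channels and close presynaptic calcium channels. Galr2 also couples to Gq and phospholipase C. In rodent DRG neurons Npy1r is known from peptidergic neurons, Npy2r acts on nerve endings to restrain transmitter release and marks a class of myelinated nociceptors in the mouse, and galanin and neuropeptide Y rise after nerve injury.

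The members Npy2r, Npy1r and Npy5r are shown by the 300 bases around their start sites, because the first 2 differed in opposite directions between the populations and the third is the neighbour of Npy1r. A promoter sequence was at hand for 4 of the 5 members and not for Galr1. That of Galr2 is not shown. The sequences are from RefSeq on GRCm38.p6, from 250 bases before to 50 after the start of transcription, 5′ to 3′ on the gene's own strand. Capitals mark the motifs found, out of 5 searched on both strands, none of which contains another: GGGCGG of SP factors, TGACGTCA of the cAMP response element, TATAAA of the TATA box, CACGTG of the E-box and TGTGGT of the Runx core. The windows are chr3:82548036-82548335 (minus strand) for Npy2r, chr8:66697172-66697471 (plus strand) for Npy1r and chr8:66688045-66688344 (minus strand) for Npy5r.
Npy2r: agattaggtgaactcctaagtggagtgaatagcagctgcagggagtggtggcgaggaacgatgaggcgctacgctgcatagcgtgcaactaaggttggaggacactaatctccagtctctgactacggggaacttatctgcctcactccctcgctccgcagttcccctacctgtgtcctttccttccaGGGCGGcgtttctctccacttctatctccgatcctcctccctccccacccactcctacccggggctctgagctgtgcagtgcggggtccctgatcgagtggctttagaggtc
Npy1r: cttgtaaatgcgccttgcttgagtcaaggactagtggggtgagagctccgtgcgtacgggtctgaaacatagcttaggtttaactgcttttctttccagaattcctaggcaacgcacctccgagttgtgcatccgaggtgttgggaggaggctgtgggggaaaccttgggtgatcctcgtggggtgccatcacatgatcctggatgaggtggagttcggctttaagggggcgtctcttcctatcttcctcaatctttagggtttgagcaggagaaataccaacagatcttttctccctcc
Npy5r: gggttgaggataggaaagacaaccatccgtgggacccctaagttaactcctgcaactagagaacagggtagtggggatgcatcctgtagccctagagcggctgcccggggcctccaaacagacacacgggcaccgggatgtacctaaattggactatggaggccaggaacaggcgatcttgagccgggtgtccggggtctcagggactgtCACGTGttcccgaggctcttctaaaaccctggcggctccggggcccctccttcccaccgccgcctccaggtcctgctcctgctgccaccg
The Npy2r window held 1 GGGCGG, beginning at position -62 from the start, a motif present in 35.7% of 32851 promoters of the same length. The Npy5r window held 1 CACGTG at -40, present in 7.15% of those promoters. None of the 5 motifs was found in the Npy1r window, which says only that these letters are not in it. The windows of Npy2r, Npy1r and Npy5r had a GC content of 57.7%, 51.7% and 61.7% and held 14, 10 and 15 CpG sites, where the medians over all promoters were 52.7% and 7.

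In the GENCODE M21 annotation of GRCm38, Npy1r (ENSMUSG00000036437.6, chromosome 8, 66697192 to 66706792, plus strand) and Npy5r (ENSMUSG00000044014.9, chromosome 8, 66679965 to 66688128, minus strand) lie head to head, with 9064 bases between their starts and 0 protein-coding genes in between. The GENCODE starts of both genes, 66697192 and 66688128, lie inside the windows shown above, upstream of the RefSeq starts used there. Part of each window before its RefSeq start thus lies within the GENCODE gene. Npy2r (ENSMUSG00000028004.12) lies on chromosome 3, 82538383 to 82548084, minus strand, and Galr2 (ENSMUSG00000020793.5) on chromosome 11, 116280939 to 116283938, plus strand. Galr1 (ENSMUSG00000024553.8) lies on chromosome 18, 82392380 to 82406777, minus strand. None of the 5 genes is overlapped by another annotated gene, so counting without regard to strand would not mix their reads with those of an annotated neighbour.

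Library totals were 9021125 to 12153109 counts for the Sst pools and 7419027 to 9568508 for the Trpv1 pools, a difference that did not pass the test (exact permutation test, two-sided, n = 4 each, p = 0.0857, adjusted p = 0.171 over 2 library measures, smallest possible p 0.0286). Both populations held the general markers of sensory neurons, with 10 of 10 tested and a summed level of 2866 to 3146 CPM, counts scaled to the library total with TMM factors, in the Sst pools, against 3202 to 3485 CPM in the Trpv1 pools. The genes Sst and Trpv1 themselves were counted in both and did not pass the test between them. Sst stood at 198 ± 106 CPM in the Sst pools, against 94.2 ± 47.4 CPM in the Trpv1 pools (edgeR adjusted p = 0.0753). Trpv1 stood at 101 ± 69.2 CPM in the Sst pools, against 195 ± 77.9 CPM in the Trpv1 pools (edgeR adjusted p = 0.109, SD throughout). Y-linked genes were counted in Trpv1 replicates 1 and 2 alone, which had 0 counts of the X-inactivation RNA Xist, and Xist was counted in the other 6 libraries. The pituitary hormone genes, Gh and Prl, had 937 and 3245 reads in Sst replicate 2 and 1332 to 11494 reads each in Trpv1 replicates 1, 2 and 3. The other 4 libraries (3 Sst and 1 Trpv1) had no more than 1 read of either and are called Gh/Prl-poor below. The called members are therefore also given within the 6 Xist libraries and within the Gh/Prl-poor ones.

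The receptors split by gene. Npy2r was counted in both populations and was 2.33-fold higher in the Sst pools, Npy1r was 29.5-fold lower there, and Galr1 held 2 reads over the Sst pools, against 1204 over the Trpv1 pools. Npy5r and Galr2 stood at a few reads in either population. Of the 5 members, 3 passed the expression filter and could be tested, Galr1 only through its counts in the Trpv1 pools. The tested members differed between the genotypes at an adjusted p under 0.05 in edgeR's quasi-likelihood test, 1 higher and 2 lower in the Sst pools. Over all 11828 genes tested, 6.35% differed, 3.04% higher and 3.31% lower, and the median log2 fold change was 0.01.

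**Figure D1:**
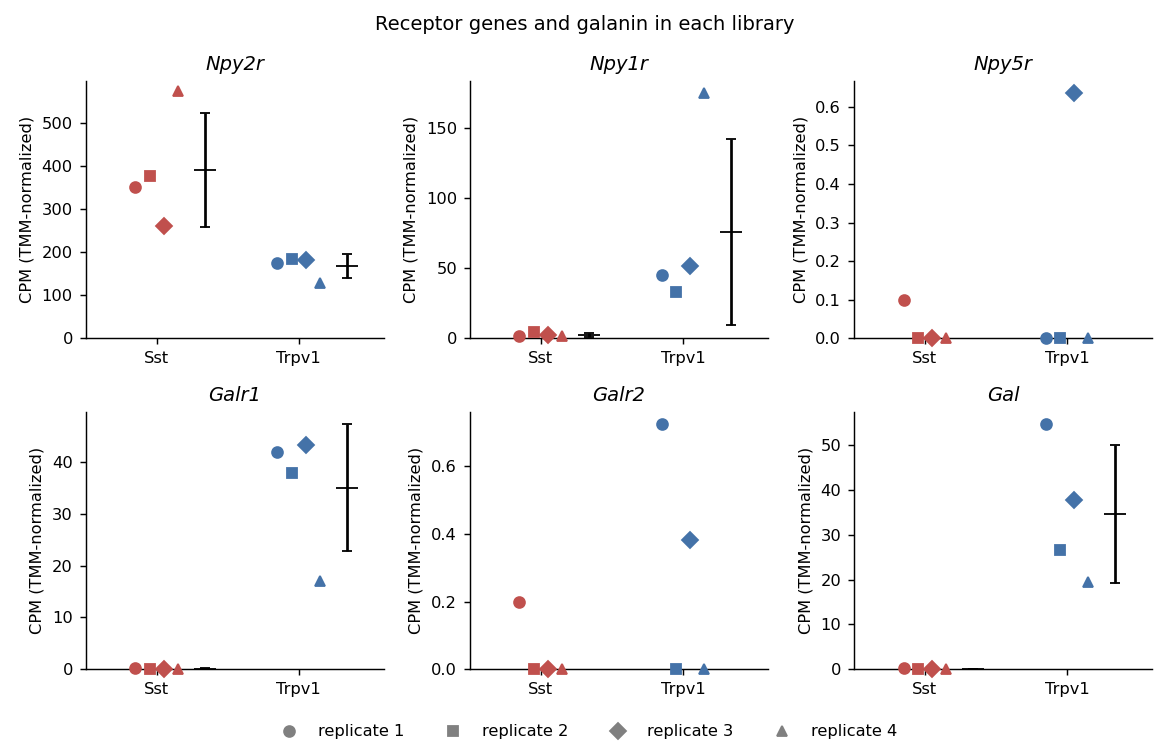
TMM-normalized CPM of the 5 receptor genes and of the ligand gene Gal in each of the 4 Sst and 4 Trpv1 libraries, with the replicate shown by the marker's shape; black bars give the mean and SD of each group and are left out for Npy5r and Galr2, which had at most 7 reads in a library. The groups do not overlap for Npy2r, Npy1r, Galr1 and Gal, and each panel has its own scale.

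Npy2r, the presynaptic receptor of the family, held 3526, 3450, 2811 and 6340 counts in Sst replicates 1 to 4, which is 351, 376, 261 and 575 CPM. In Trpv1 replicates 1 to 4 it held 1696, 1449, 1442 and 1207 counts, which is 176, 185, 183 and 128 CPM. The lowest Sst library thus lay above the highest Trpv1 library, and the Sst pools spread more, with replicate 4 the highest. The means were 391 ± 133 CPM in the Sst pools, against 168 ± 26.9 CPM in the Trpv1 pools (SD, n = 4 each). On the log2 scale the fold change was 1.22 (SE 0.239, edgeR, Benjamini-Hochberg adjusted p = 0.00201). Groups that did not overlap, with the Sst pools higher, were seen for 5.43% of all genes tested. In such pools more cells that make a transcript and more transcript per cell cannot be told apart.

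The difference of Npy2r was of like size when single libraries were left out, with log2 fold changes from 0.97 without Sst replicate 4 to 1.39 without Sst replicate 3 and edgeR adjusted p of at most 0.0125. It was 1.36 in the 6 libraries with Xist (edgeR adjusted p = 0.0392). In the 4 Gh/Prl-poor libraries the value was 1.67 and the call was lost (edgeR adjusted p = 0.247), in a fit where the lone Trpv1 library is assumed to vary like the Sst pools.

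Some markers of 2 neuron classes were higher beside Npy2r in the Sst pools. Of 8 markers of the NP3 itch neurons, the class that holds Nppb and Sst, 3 (Il31ra, Htr1f and Jak1) were called higher and 0 lower. The 8 summed to 4248 to 7123 CPM in the Sst pools, against 2378 to 2545 CPM in the Trpv1 pools. Jak1 alone gave 2426 to 3789 CPM in the Sst pools, against 1191 to 1438 CPM in the Trpv1 pools. Nppb, Sst, Osmr, Cysltr2 and Nts were not called. Of these only Nts had a lower mean in the Sst pools (34.8 CPM, against 38.7 CPM in the Trpv1 pools). Of 8 markers of myelinated neurons, such as Nefh and Ntrk3, 7 were called higher and 0 lower. They summed to 1447 to 2521 CPM in the Sst pools, against 341 to 580 CPM in the Trpv1 pools. Slc17a7, among these 7, held 1767 reads over the Sst pools and 1 over the Trpv1 pools. It thus passed the expression filter only through its counts in the Sst pools. Both lists are to be read beside the 3.04% of all genes tested that were called higher and the 3.31% called lower. Sst replicate 4, the library with the most Npy2r, had the highest NP3 sum of all 8 and the lowest myelinated sum of the Sst pools. The part of these cell classes in the level of Npy2r was not tested.

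Npy1r, the receptor gene known from peptidergic neurons, held 20, 43, 27 and 16 counts in Sst replicates 1 to 4, or 1.99, 4.69, 2.50 and 1.45 CPM. In Trpv1 replicates 1 to 4 it held 437, 257, 405 and 1645 counts, or 45.2, 32.9, 51.4 and 175 CPM. It was thus counted in all 8 libraries, the groups did not overlap, and Trpv1 replicate 4 stood far above the other 3. The means were 2.66 ± 1.42 CPM in the Sst pools, against 76.0 ± 66.2 CPM in the Trpv1 pools (SD, n = 4 each). The log2 fold change was -4.88 (SE 0.636, edgeR, Benjamini-Hochberg adjusted p = 1.16e-05). Among all genes tested, 5.71% had groups that did not overlap with the Sst pools lower.

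The size of the Npy1r difference rested in part on Trpv1 replicate 4. Without it the log2 fold change was -4.04, or 16.5-fold in place of 29.5-fold (edgeR adjusted p = 0.000113). Leaving out any other library gave values from -5.25 to -4.67. In the 6 libraries with Xist the value was -5.42 (edgeR adjusted p = 2.63e-05), and in the 4 Gh/Prl-poor libraries it was -6.42 (edgeR adjusted p = 0.000645), where Trpv1 replicate 4 is the lone Trpv1 library.

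Galr1, the inhibitory galanin receptor gene, held 2, 0, 0 and 0 counts in Sst replicates 1 to 4. In Trpv1 replicates 1 to 4 it held 406, 297, 341 and 160 counts, or 42.0, 38.0, 43.3 and 17.0 CPM. Each Trpv1 library was far above every Sst library, and among the Trpv1 pools replicate 4 was the lowest. Over the groups the ratio of Trpv1 to Sst was 710, with a 95% exact binomial interval of 196 to 5870 that covers counting error only, since reads carried no molecular identifiers. The Benjamini-Hochberg adjusted p in edgeR was 5.68e-05. Both Sst reads lay in replicate 1. Without that library the Sst pools had 0 counts of Galr1. With 3 counts as the floor for the whole group, Galr1 was then at least 358-fold lower there. That bound covers counting error only and comes from leaving out the library with the only Sst reads. The lower limit over all 4 Sst libraries remains 196. In the 6 libraries with Xist the edgeR adjusted p was 0.00476. In the 4 Gh/Prl-poor libraries the counts were 2 over the 3 Sst pools, against 160 in the lone Trpv1 pool, and the call was lost (fitted log2 fold change -7.79, edgeR adjusted p = 0.184).

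The galanin receptor and its ligand were counted in the same libraries. Gal held 2, 0, 0 and 0 counts in Sst replicates 1 to 4, again with both reads in replicate 1. In Trpv1 replicates 1 to 4 it held 528, 208, 298 and 183 counts, or 54.6, 26.6, 37.8 and 19.4 CPM. Like Galr1, Gal passed the expression filter only through its counts in the Trpv1 pools. The adjusted p of Gal was 6.94e-05 in edgeR's quasi-likelihood test, and replicate 4 was again the lowest of the Trpv1 pools. In the 4 Gh/Prl-poor libraries Gal had 2 counts over the 3 Sst pools, against 183 in the lone Trpv1 pool, and the call was lost (fitted log2 fold change -7.98, edgeR adjusted p = 0.162). Galr1 and Gal were both counted in Trpv1 replicate 4, which had 0 counts of Gh and Prl, at 17.0 and 19.4 CPM. In Trpv1 replicates 1, 2 and 3, which held both, Galr1 stood at 38.0 to 43.3 CPM and Gal at 26.6 to 54.6 CPM. Galr1 and Gal had 0 counts in Sst replicate 2, which also held Gh and Prl. Its pituitary markers summed to 456 CPM, against 1633 to 1728 CPM in Trpv1 replicates 1, 2 and 3. The part of pituitary reads in the levels of Galr1 and Gal was not tested.

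Peptidergic and other markers were lower beside Npy1r and Galr1 in the Sst pools. Of 6 markers of peptidergic neurons, Calca, Tac1, Adcyap1, Kit, Trpv1 and Gal, 5 were called lower and 0 higher. Among these 5 is Gal, already given above, which passed the expression filter only through the Trpv1 pools. For comparison, 3.31% of all genes tested were called lower and 3.04% higher. The 6 markers summed to 92.1 to 244 CPM in the Sst pools, against 2015 to 2874 CPM in the Trpv1 pools. Trpv1 replicate 4, which among the Trpv1 pools was highest in Npy1r and lowest in Galr1 and Gal, had the highest peptidergic sum and the lowest myelinated sum of all 8 libraries. Of 5 markers of the NP1 and NP2 classes, 2 (Mrgpra3 and Mrgprx1) were called lower and 0 higher, and the 5 summed to 32.8 to 48.1 CPM in the Sst pools, against 196 to 472 CPM in the Trpv1 pools. The other 3, among them the NP1 marker Mrgprd, summed to 14.2 to 39.6 CPM in the Sst pools, against 13.0 to 47.1 CPM in the Trpv1 pools, which overlap. The part of these cell classes in the levels of Npy1r and Galr1 was not tested.

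Npy5r, the receptor gene beside Npy1r, held 1 count in Sst replicate 1 and 5 counts in Trpv1 replicate 3, and 0 in the other 6 libraries. The group levels were 0.0244 CPM in the Sst pools, against 0.144 CPM in the Trpv1 pools, with 95% exact Poisson intervals of 0.000617 to 0.136 and 0.0467 to 0.335 CPM. Galr2, the receptor gene that also couples to Gq, held 2 counts in Sst replicate 1, against 7 in Trpv1 replicate 1 and 3 in Trpv1 replicate 3, with 0 in the other 5 libraries. Its group levels were 0.0487 CPM in the Sst pools (interval 0.00590 to 0.176) and 0.287 CPM in the Trpv1 pools (0.138 to 0.529). The ratio of Trpv1 to Sst was 5.90 for each of the 2 genes, with 95% exact binomial intervals of 0.660 to 279 for Npy5r and 1.26 to 55.4 for Galr2, which take reads as independent and leave out the spread between libraries. Neither gene passed the expression filter, and with no filter neither was called by edgeR (adjusted p = 0.911 for Npy5r and 0.888 for Galr2), so no difference beyond the spread of the libraries was detectable at this depth. The reads of both genes in the Sst group, and those of Galr1, all lay in Sst replicate 1, the library with the most genes detected (16917, against 14437 to 15228 in the other Sst libraries).

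Levels of different genes were compared per length, as RPKM, which is CPM divided by exon length in kilobases. In the Sst pools the order was Npy2r at 115 ± 39.2 RPKM, then Npy1r at 0.770 ± 0.411 RPKM, with Galr1, Galr2 and Npy5r between 0.00974 and 0.0203 RPKM (SD, n = 4). The last 3 were not separable, since each rested on 1 or 2 reads. In the Trpv1 pools the order was Npy2r at 49.7 ± 7.96 RPKM, Npy1r at 22.0 ± 19.2 RPKM and Galr1 at 11.7 ± 4.11 RPKM, ahead of Galr2 and Npy5r at 0.112 and 0.0621 RPKM (SD, n = 4). There Npy1r overlapped with both of its neighbours in the order, and its place above Galr1 rested on Trpv1 replicate 4. Without that library, left out after its values were seen, Npy1r averaged 12.5 ± 2.73 RPKM and Galr1 13.8 ± 0.926 RPKM (SD, n = 3), so that the order of these 2 genes turned.

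The balance of both neuropeptide Y receptor genes was read within each library. The ratio of Npy2r to Npy1r in RPKM was 180, 81.9, 106 and 405 in Sst replicates 1 to 4. In Trpv1 replicates 1 to 4 it was 3.96, 5.76, 3.64 and 0.749. The ratio favoured Npy2r in 7 of 8 libraries, and Trpv1 replicate 4 was the exception, where Npy1r made up 57.2% of the sum of both.

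**Figure D2:**
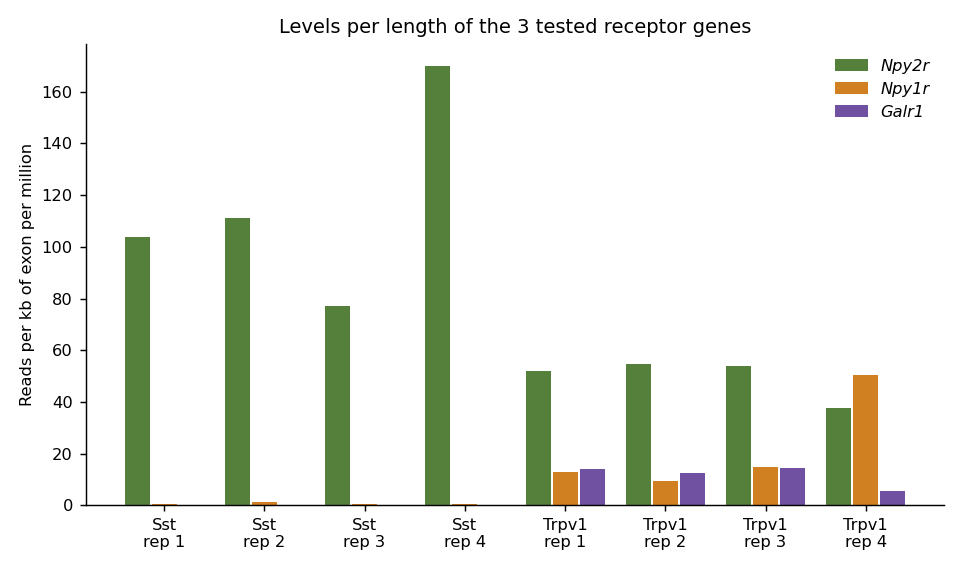
Level per length, in RPKM, of Npy2r, Npy1r and Galr1 in each library. Bars start at 0 and each stands for 1 gene in 1 library; Npy2r is the highest bar in every library except Trpv1 replicate 4, where Npy1r stood at 50.5 and Npy2r at 37.9.

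The listed ligand genes other than Gal gave no signal where they could be counted. Spx, also listed, matched no symbol of the table. Npy, Pyy, Ppy and Galp had 0 counts in all 8 libraries, which at 3 counts over all of them allows up to 0.0396 CPM. Of 9 listed ligands and peptidases 8 were in the table and 2 were tested, of which Gal was lower and Anpep, an aminopeptidase gene, did not pass (1.07 ± 1.66 CPM in the Sst pools, against 2.81 ± 2.23 CPM in the Trpv1 pools). Dpp4, the peptidase that trims neuropeptide Y, held 1 count over the Sst pools and 10 over the Trpv1 pools, with its counts in 1 library of each group. Of the other receptors of the families, Npy6r had 0 counts, and Npy4r held 8 counts in Sst replicate 1, 8 in Trpv1 replicate 1 and 0 elsewhere.

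The signalling genes downstream gave no calls among those that could be tested. Of 5 Gi/o alpha subunit genes tested, 0 were called in edgeR, with log2 fold changes from -0.55 to 0.61 and a median of -0.16 (0 of 5 higher and 0 of 5 lower). Gnao1, the Go subunit gene, stood at 1458 ± 301 CPM in the Sst pools, against 2129 ± 374 CPM in the Trpv1 pools, just over the threshold (edgeR adjusted p = 0.0533), and passed in 6 of 19 alternatives. Gnai1 stood at 261 ± 75.9 CPM in the Sst pools, against 171 ± 28.2 CPM in the Trpv1 pools (edgeR adjusted p = 0.128). Of 6 listed channels that Gi/o proteins act on, 3 (Kcnj3, Cacna1a and Cacna1b) were tested and 0 were called, with Kcnj5 at 0 counts in all 8 libraries and log2 fold changes from -0.37 to 0.34 (median -0.11).

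The Gq arm and the genes that switch receptors off likewise gave no calls. Of 7 listed Gq-class alpha subunit and phospholipase C beta genes 6 were tested and 0 were called (log2 fold changes from -1.36 to 0.33, median 0.02). Plcb1, the gene with the lowest fold change, stood at 20.8 ± 6.72 CPM in the Sst pools, against 53.5 ± 30.7 CPM in the Trpv1 pools (edgeR adjusted p = 0.0592), and passed in 3 of 19 alternatives. Of 6 receptor kinase and arrestin genes found and tested, 0 were called (log2 fold changes from -0.73 to 0.79, median 0.08). These counts are to be read beside the 6.35% of all genes called, and a gene that missed the threshold is not shown to be equal.

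Opioid and somatostatin receptor genes, which also encode Gi/o-coupled peptide receptors, were set beside the members. Of 9 listed genes 4 were tested and 0 were called, where 6.35% of all genes were (log2 fold changes from -2.01 to 0.44, median -0.57). Oprm1, the mu opioid receptor gene, stood at 127 ± 45.3 CPM in the Sst pools, against 229 ± 69.4 CPM in the Trpv1 pools (edgeR adjusted p = 0.0640), and passed in 4 of 19 alternatives. Sstr2, a somatostatin receptor gene that missed the filter, held 3 counts over the Sst pools, against 123 over the Trpv1 pools, with 72 and 49 of these in replicates 3 and 4.

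Genes that nerve injury is known to raise in rodent DRG were also read, since galanin and neuropeptide Y belong to that response. Of 8 listed genes 5 were tested, 2 were lower in the Sst pools and 0 were higher (median log2 fold change -1.49). Among all genes tested, 3.31% were called lower and 3.04% higher. Gap43, a growth cone protein gene, stood at 47.1 ± 19.3 CPM in the Sst pools, against 369 ± 73.4 CPM in the Trpv1 pools, a log2 fold change of -2.98 (edgeR adjusted p = 1.36e-07). Sox11, a transcription factor gene, stood at 14.1 ± 2.61 CPM in the Sst pools, against 39.7 ± 18.3 CPM in the Trpv1 pools (edgeR adjusted p = 0.0459). Its call failed in 11 of 19 alternatives, including those without any 1 of the Sst libraries, Trpv1 replicate 3 or Trpv1 replicate 4 (edgeR adjusted p from 0.0523 to 0.168), and with the replicate block (0.0806). Atf3, an early injury factor gene, stood at 88.4 ± 14.9 CPM in the Sst pools, against 57.8 ± 22.0 CPM in the Trpv1 pools (edgeR adjusted p = 0.273). Gap43 and Gal were both lower in the Sst pools and Atf3 was not, and the part of an injury response in the level of Gal was not tested.

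**Figure D3:**
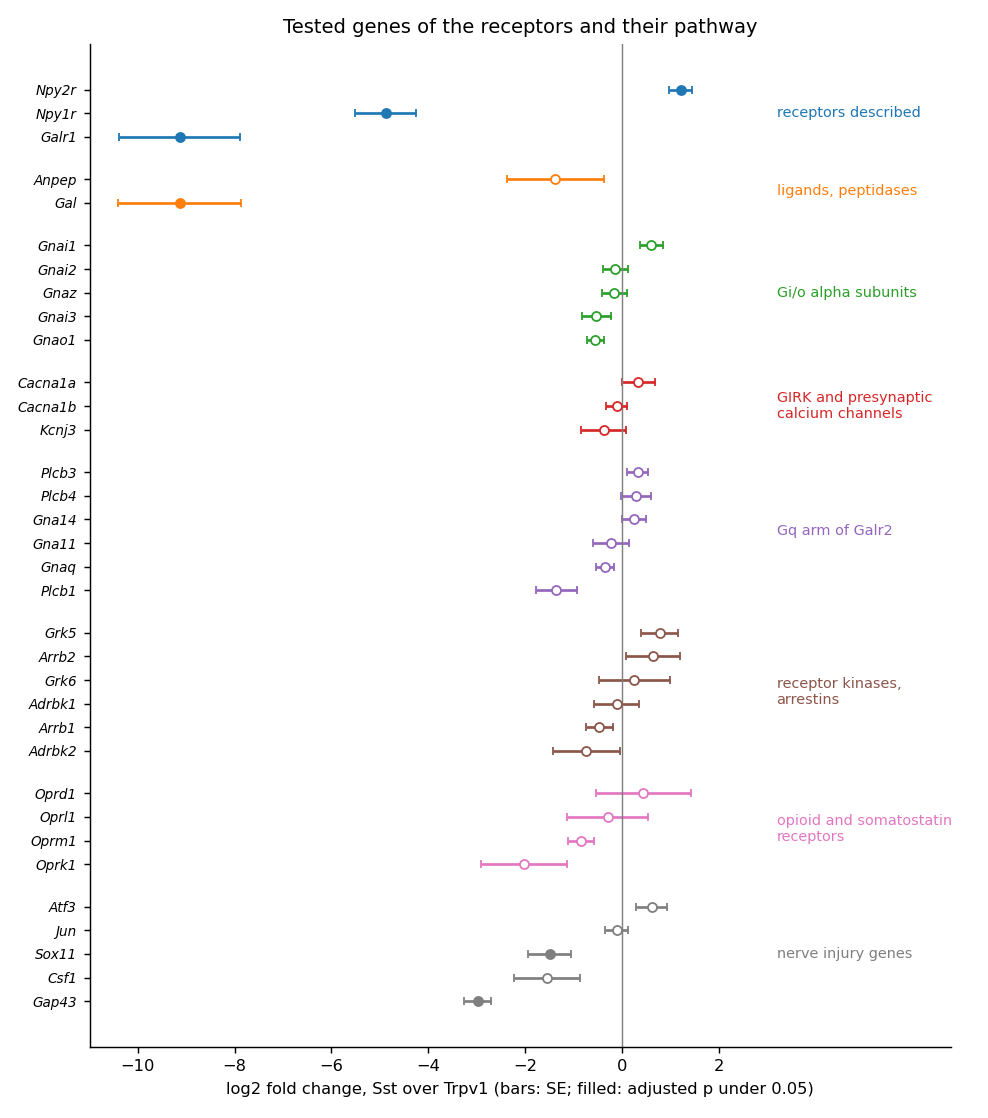
Log2 fold change, Sst over Trpv1, of each tested gene of the receptor lists and of their ligands, effectors and related receptors. The nerve injury genes are shown as well. Bars give the SE and filled markers an edgeR adjusted p under 0.05. Npy2r stands to the right of 0 at 1.22 and Npy1r, Galr1 and Gal far to the left. The G protein, channel, kinase and arrestin genes lie between -0.73 and 0.79 and are unfilled. Gap43 and Sox11 are filled at -2.98 and -1.49. The values of Galr1 and Gal rest on 2 Sst reads each and measure no exact size.

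The genes with patterns most like each tested member were found by Pearson's r of log2 CPM over the 8 libraries, among genes whose mean log2 CPM reached 3. For Npy2r they were Sort1, a sorting receptor gene (r = 0.991), Urod, a heme synthesis enzyme gene (0.977), and Zfr2 (0.967). Zfr2 itself was not called between the genotypes (edgeR adjusted p = 0.0829). Urod was called (edgeR adjusted p = 0.0390) but lost its call in 13 of 19 alternatives. For Npy1r they were Samd4 (r = 0.981), Gpbp1 (0.976) and Aqp1, a water channel gene (0.973), and for Galr1 they were Tmem255a (r = 0.997), Dclk1, a microtubule-associated kinase gene (0.990), and Lcorl (0.988). The points share their libraries and fall into the 2 genotypes, so a gene with a clear difference between genotypes has a high r whatever else it does, and these values are a description only. Aqp1 stood at 9.33 CPM in the Sst pools, against 169 CPM in the Trpv1 pools, and Sort1 at 64.4 CPM in the Sst pools, against 16.0 CPM in the Trpv1 pools (means, n = 4 each).

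Markers of cells other than neurons were present in both populations. Of 7 satellite glia markers 0 were called, at a summed 415 to 794 CPM in the Sst pools, against 311 to 610 CPM in the Trpv1 pools. Myelinating Schwann cell markers (0 of 4 tested called) summed to 344 to 571 CPM in the Sst pools, against 547 to 760 CPM in the Trpv1 pools. Endothelial and mural markers (1 of 3 tested called, Rgs5, which was higher) summed to 394 to 785 CPM in the Sst pools, against 158 to 332 CPM in the Trpv1 pools. Nearly all of this was Rgs5, and the other 5 of these markers summed to 3.89 to 23.5 CPM in the Sst pools, against 0.761 to 26.0 CPM in the Trpv1 pools. The part of these cells in the levels of the receptor genes was not tested. Immune markers (0 of 1 tested called) summed to 1.31 to 7.47 CPM in the Sst pools, against 1.65 to 25.8 CPM in the Trpv1 pools. Markers of C-fibre touch neurons (1 of 2 tested called higher, Piezo2) summed to 367 to 739 CPM in the Sst pools, against 192 to 336 CPM in the Trpv1 pools. Piezo2 alone gave 365 to 727 CPM in the Sst pools, against 188 to 333 CPM in the Trpv1 pools, so this sum is mostly that of 1 gene. Of 5 pituitary markers 3 were tested and 0 called, and their sum was 0.0907 to 456 CPM in the Sst pools, against 0 to 1728 CPM in the Trpv1 pools. The calls in these lists are to be read beside the 6.35% of all genes called.

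**Figure D4:**
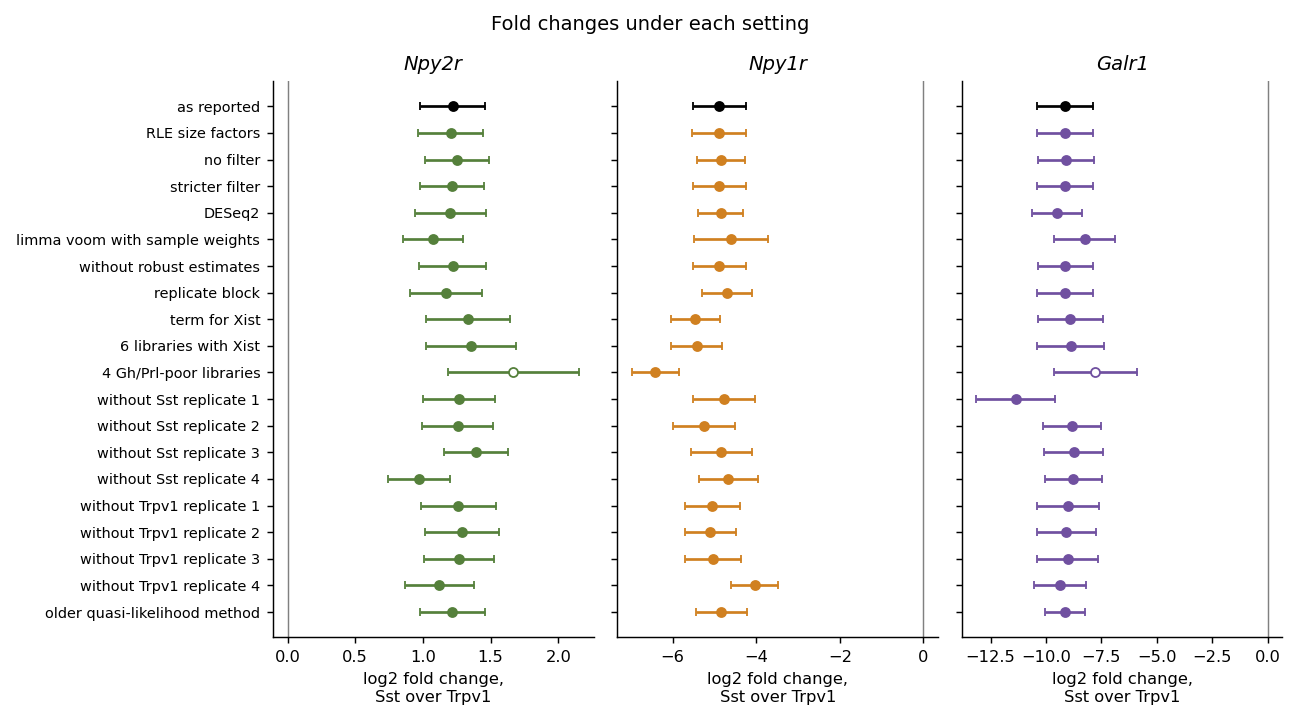
Log2 fold change, Sst over Trpv1, of Npy2r, Npy1r and Galr1 as reported (black) and under each of 19 alternatives; bars give the SE and open markers an adjusted p of 0.05 or more. Every marker keeps its side of 0, and the open ones are those of Npy2r and Galr1 in the 4 Gh/Prl-poor libraries; without Sst replicate 1 the Sst group has 0 reads of Galr1, so that value measures no size.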

How the data were processed

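The authors deposited 1 table of raw counts per gene symbol with a column for each of the 8 samples; 0 columns were left unused. The tools named by the submitters' processing notes are bcl2fastq 2.17, Trimmomatic 0.33 and featureCounts, and the build is GRCm38. Not given in the sources used here are the aligner, the annotation, strand use and the handling of multi-mapped reads. Per the labels' protocols, RNA came from a PicoPure kit, cDNA from an Ovation V2 kit and libraries from Nextera XT, and amplification from small pools adds spread to low genes.

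The deposited counts were tested across all genes with edgeR 4.0.16 (R 4.3.3): TMM scaling, the expression filter at a minimum count of 10, and the quasi-likelihood F test with robust estimates in its bias-adjusted form, group as the sole term, two-sided, Benjamini-Hochberg adjustment and 0.05 as the limit. Fold changes divide Sst by Trpv1. RPKM used union exon lengths from GENCODE M21. DESeq2 1.42.0 and limma 3.58.1 (voom) were alternatives. The main test was also run on simulated counts, with 100 genes changed 2-fold and 100 changed 4-fold. It called 9% of the former and 49% of the latter, and 3 of its 61 calls were false. Most 2-fold differences were thus missed there. Pairs of libraries within a group differed by more than sampling noise (chi-square per degree of freedom 40.0 to 100.0). The members, gene lists, tests and alternatives were chosen with earlier results of these data known; the bias-adjusted form of the test was taken as the main one, and the older form added as an alternative, after both had been run (751 and 493 genes called). Named genes were the 5 members, Npy and Gal, each called list member, the 3 genes most like each tested member and the marker lists. Gnao1, Gnai1, Anpep, Plcb1, Oprm1, Sstr2, Dpp4, Atf3 and the other untested or uncalled genes given with values were named after their values were seen. The spellings Ppyr1, Galr3, Spx, Grk2, Grk3 and Tafa4 matched no symbol; Npy4r, Adrbk1, Adrbk2 and Fam19a4 stand for 4 of them.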

Additional observations from a re-analysis of the deposited data

Results flagged for a closer look

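Npy1r stood at 175 CPM in Trpv1 replicate 4, with the next library at 51.4 CPM. The gap was 0.869 of the range of the 4 libraries, more than Dixon's test allows at 95%, which chance alone exceeds in about 1 in 20 groups of well-spread values. In 4 other groups 1 library had reads and the rest had 0, which fixes the gap at the whole range, so that the rate of 1 in 20 does not apply and nothing is read from them. They are Npy5r at 0.0996 CPM and Galr1 and Galr2 at 0.199 CPM each in Sst replicate 1, which are 1 to 2 reads, and Npy5r at 0.635 CPM in Trpv1 replicate 3, which is 5 reads.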

How the results depend on the processing

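Over 19 alternatives Npy1r kept its direction and its call in each (log2 fold change -6.42 to -4.04, adjusted p at most 0.00340). Npy2r and Galr1 kept their direction in all 19 and their call in 18. In the 4 Gh/Prl-poor libraries they stood at 1.67 and -7.79 (adjusted p = 0.247 and 0.184), and the difference of Galr2 at 0.0675 CPM (Sst minus Trpv1) against -0.226 CPM in all libraries. That setting has 1 Trpv1 library. The difference of Npy5r was -0.134 CPM and ran from -0.284 to 0.0338 CPM, with no call. The number of genes called was 751. It was 435 with a term for Xist, 305 in the 6 libraries with Xist, 52 in those 4 libraries, 493 with the older quasi-likelihood method (an alternative chosen after seeing the data), and 452 to 747 with 1 library left out, lowest without Sst replicate 3, then 487 without Trpv1 replicate 3 and 500 without Sst replicate 1. Settings with fewer libraries have less power by construction; for the others the cause was not tested.

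With the replicate number as a block 572 genes were called, and Npy2r, Npy1r and Galr1 stood at 1.17, -4.69 and -9.13, each still called. The numbers are shared between genotypes but are not shown to mark a picking session: correlations of same-numbered libraries ran from -0.0296 to 0.0316, and 1 of 4 Sst libraries correlated best with its own number. Differences of Npy5r and Galr2 are limited by depth, with 6 and 12 reads in all.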
